A study of Rattus norvegicus with 20 samples.

Results

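Input DNA signal was far above that of normal mammary gland over a stretch of chromosome 8 in 1 rat mammary carcinoma and over a stretch of chromosome 9 in another, and the CpG islands in and around both stretches are described here. The members are the non-control probes of a CpG island array whose rn4 position starts in chr8:5000001-20000000 (326 probes) or chr9:1-20000000 (599 probes), which makes 925 of 93024 probes. The intervals were chosen by the high input signal of carcinomas 15 and 14, so that signal is described below and not tested. The study compared 16 mammary carcinomas, called radiation-induced in its title, with 4 normal mammary glands on 20 arrays, 1 per tissue sample. All tissue was taken from female F1 hybrid rats (Sprague-Dawley by Copenhagen). The labels give the treatments as none or 4 Gy of whole-body 137Cs gamma rays at 0.5 Gy per minute and 7 weeks of age, without saying which normal glands came from irradiated rats. The groups can therefore differ in irradiation as well as in tissue. The sample codes of carcinomas 7 and 8 do not match between label and scanner file, and those of carcinomas 14 and 15 do.

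Tumour cells can carry extra copies of part of a chromosome. Such a focal gain adds DNA of that segment to the tissue, and when genomic DNA is labelled and hybridized to an array, the probes of the segment give more signal than their neighbours. CpG islands are CpG-rich stretches found at many promoters, which are mostly unmethylated in normal tissue, and in tumours some gain methylation while methylation elsewhere in the genome is often lost. On these arrays the same tissue was hybridized in 2 colours. DNA bound by a methyl-CpG binding domain protein carried Cy5 and is called the enriched signal, and untreated input DNA carried Cy3. A ratio of Cy5 to Cy3 relates methyl-CpG capture to the amount of DNA present. The Cy3 signal alone is used here for the amount of DNA, though it also varied between neighbouring islands. Copy number was not measured by another assay here, and nothing used here states the share of tumour cells in each tissue. In whole tissue, a large change in some cells cannot be told apart from a smaller one in all cells.

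Input is given as the log2 of the processed Cy3 signal with the median of the array removed, minus the mean of the 4 normal glands, so that 1 stands for double the signal. Probes had to be well above background in Cy3 on at least 10 arrays, which 319 of the 326 probes on chromosome 8 and 588 of the 599 on chromosome 9 were. A stretch was the longest run of 0.5-megabase windows with at least 3 probes and a mean over 0.5. Median raw Cy3 signal ran from 73 to 136 units over the arrays. No Cy3 or Cy5 value inside either stretch was saturated in the carcinoma that carried it.

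On chromosome 8, input was high in carcinoma 15 over chr8:10000001-13500000, a length of 3.5 megabases in 7 windows with 167 probes that passed the filter. The mean over these probes was 1.51 (SD over probes 0.72), a 2.85-fold signal against normal glands, and 154 of the 167 probes exceeded 0.5. With normexp background correction the mean was 0.96. The stretch was tallest at its proximal end: the window from 10000001, with 4 probes, stood at 2.25, which is 4.74-fold. From there the windows read 1.98, 1.66 and 1.25, and then stayed level at 1.44, 1.43 and 1.43 to the distal end. The profile was thus a peak followed by a plateau. Raw Cy3 in carcinoma 15 had a median of 240 units inside the stretch and of 87 over the whole array, so the high signal sat on one of the dimmer arrays. Inside the same stretch the raw medians were 108 to 141 in normal glands and 79.5 to 139 in the other carcinomas.

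The edges of the chromosome 8 stretch were limited by where the array has probes. The first probe inside starts at 10117754 and the last at 13284736. The nearest filtered probe before it starts at 7790702 and lies in a window at 0.16, and the nearest after it, at 14245420, was alone in its window and stood at -0.33. Each edge therefore lies somewhere in a gap without probes. The first window beyond that with at least 3 probes, from 15000001, held 4 probes and was at -1.20, within the range of the other carcinomas there (-1.57 to 0.35). In the windows from 15500001 (10 probes) and 19500001 (91 probes), carcinoma 15 was at -0.69 and -0.46. The lowest other carcinoma stood higher there, at -0.43 and -0.15. In the windows from 18500001 and 19000001 carcinoma 15 was within the range of the others. Over the rest of the interval, input in carcinoma 15 averaged 0.094 before the stretch (28 probes) and -0.51 after it (124 probes), and the rest of chromosome 8 averaged -0.41.

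**Figure D1:**
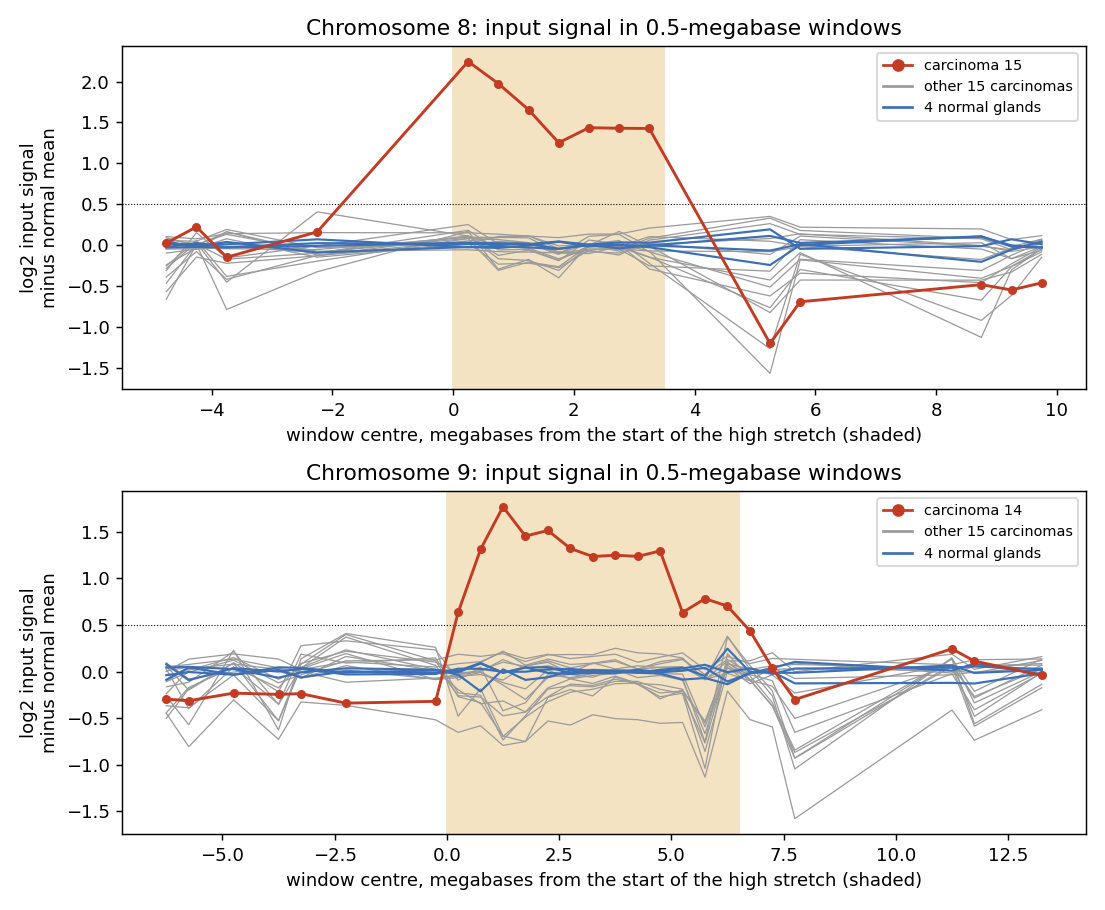
Mean log2 input signal minus the mean of the normal glands (vertical axis) in 0.5-megabase windows with at least 3 probes, by distance in megabases from the start of each high stretch (horizontal axis), with the stretch shaded and the threshold of 0.5 dotted. Carcinoma 15 stands between 1.25 and 2.25 on chromosome 8 and carcinoma 14 between 0.64 and 1.77 on chromosome 9, above all other carcinomas (grey) and normal glands (blue) in every shaded window.

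On chromosome 9, input was high in carcinoma 14 over chr9:6500001-13000000, a length of 6.5 megabases in 13 windows with 468 probes that passed the filter. The mean was 1.28 (SD over probes 0.31), a 2.43-fold signal against normal glands, and 451 of 467 probes with a value exceeded 0.5. This stretch was longer and more even than the one on chromosome 8. It rose in steps from its proximal end, with 0.64 in the window from 6500001, 1.31 in that from 7000001 and 1.77 (3.41-fold) in that from 7500001. The windows from 8000001 to 11500000 then read 1.46, 1.52, 1.32, 1.24, 1.25, 1.24 and 1.30. From 11500001 on it stepped down to 0.64, 0.78 and 0.70. Raw Cy3 in carcinoma 14 had a median of 295.75 units inside the stretch against 129 over the array, while the normal glands had 107 to 139.5 inside it.

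Islands placed the chromosome 9 edges more closely than those of chromosome 8. An island is used here for a run of at least 3 probes that start at most 500 bases apart. Proximally, the island at chr9:6009169-6009624 was at -0.32 in carcinoma 14, and the next 3 islands, at 6589550, 6779570 and 7284146, were at 0.35, 0.88 and 1.31. Distally, the island at chr9:13002630-13003099 was still at 0.96, and the next, at chr9:13039588-13040711, was at 0.11. Both fall in the window from 13000001, which at 0.44 lay just under the threshold, while the window before the stretch, from 6000001, was at -0.32. The last drop on the distal side and the first rise on the proximal side thus each lay between neighbouring islands. In the lower distal part, the islands from 11831075 to 12852927 stood between 0.49 and 0.80. Some other carcinomas were low in that part too, down to -1.13 in the window from 12000001, where their median was -0.55. In the windows from 11500001 and 12500001 the median of the other carcinomas was -0.074 and 0.095, where carcinoma 14 stood at 0.64 and 0.70. Normal glands spread from -0.14 to 0.25 in the latter window. At the lowest of these islands in carcinoma 14, from 11891185 at 0.49, the other carcinomas ran from -1.16 to 0.046. Why this part was lower was not tested.

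Island by island, the signal of the carcinoma with the stretch stood apart. The stretches were drawn by this same signal, so the counts below describe them and are no test. In the chromosome 8 stretch, input in carcinoma 15 was the highest of all 20 arrays at 24 of 25 islands. The exception, at chr8:11598189-11598816, read -0.16 in carcinoma 15 and between -2.0 and -0.069 in the other carcinomas. At the near island from 11573680 the other carcinomas ran from -0.12 to 0.28, and the reason for this difference was not tested. In the chromosome 9 stretch, carcinoma 14 was the highest of all 20 arrays at 64 of 64 islands, with values from 0.35 to 1.77. Beside the stretches it was the highest at 1 of 22 islands on chromosome 8 and at 3 of 19 on chromosome 9.

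Across the genome, such windows were few. Of 3341 windows with at least 3 probes, carcinoma 15 exceeded 0.5 in 22 (0.658%), of which 7 were in the chromosome 8 stretch, and carcinoma 14 exceeded 0.5 in 14 (0.419%), of which 13 were in the chromosome 9 stretch. A value over 1 was reached in 10 windows (0.299%) in carcinoma 15 and in 9 (0.269%) in carcinoma 14, and in 0 on the other 18 arrays. All 9 of carcinoma 14 lay in its stretch. In carcinoma 15, 3 of the 10 lay elsewhere. These were chr8:24000001-24500000 at 1.22 with 24 probes, chr17:500001-1000000 at 1.46 with 31 probes and chr1:28000001-28500000 at 1.78 with 6 probes. The first of them is on the same chromosome, beyond the interval.

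Neither stretch was high in a second carcinoma. Inside the chromosome 8 stretch, the normal glands had mean inputs of 0.026, 0.0037, -0.021 and -0.0086, and the 15 other carcinomas ran from -0.21 in carcinoma 4 through a median of -0.072 to 0.12 in carcinoma 14. Inside the chromosome 9 stretch, the normal glands had -0.0071, 0.018, 0.018 and -0.029, and the 15 other carcinomas ran from -0.55 in carcinoma 3 through a median of -0.052 to 0.19 in carcinoma 12. The low value of carcinoma 3 was shared by the rest of the interval, which averaged -0.56. Set against the rest of the same interval, the other carcinomas ranged from -0.057 to 0.073 on chromosome 8 and from -0.081 to 0.12 on chromosome 9, where carcinoma 15 stood at 1.91 and carcinoma 14 at 1.33.

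The 15 carcinomas that had no part in choosing a stretch could be tested against normal glands. On chromosome 8 they differed from the 4 normal glands by -0.064 (SD 0.092 in carcinomas, 0.020 in normal glands), with 10 of 15 below and 2 of 15 above all normal glands. On chromosome 9 the difference was -0.075 (SD 0.20 and 0.023), with 9 of 15 below and 6 of 15 above. Neither passed a two-sided exact permutation test over 3876 splits, with p adjusted over the 4 single-value tests of 0.388 and 0.460. The smallest p this design can give is 0.000258. Within the second and the third scan day the differences were -0.053 and -0.046 on chromosome 8, and -0.11 and -0.0096 on chromosome 9.

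Carcinomas 14 and 15 were both scanned on the second scan day, with 2 normal glands and the carcinomas 4, 5, 11 and 16. The array that shared a slide with carcinoma 15 was that of carcinoma 11, at -0.079 in the chromosome 8 stretch. The array that shared a slide with carcinoma 14 was that of carcinoma 16, at 0.11 in the chromosome 9 stretch. Neither of these slide partners shared the high signal.

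**Figure D2:**
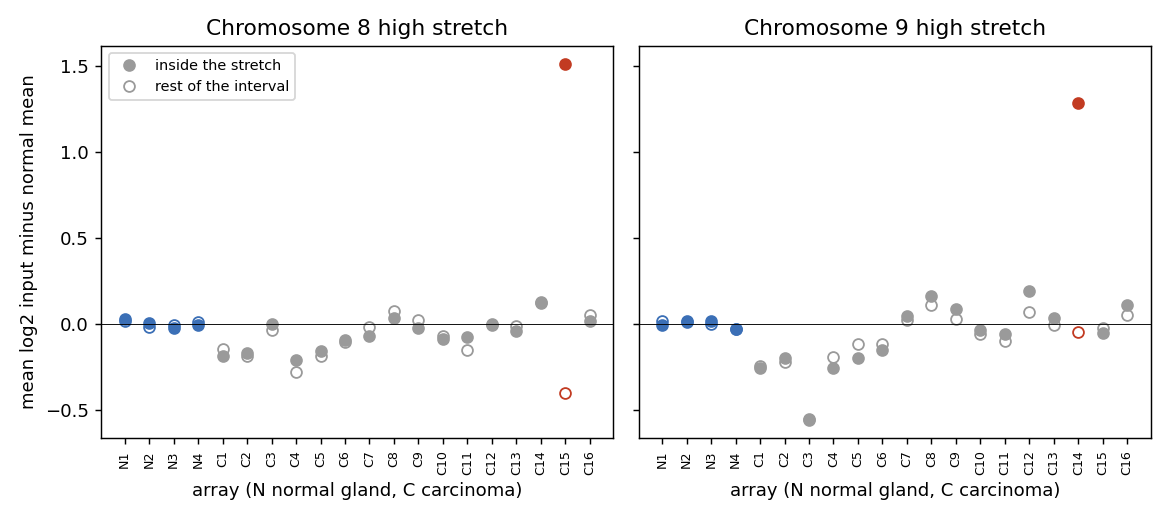
Mean log2 input minus the mean of the normal glands (vertical axis) on each of the 20 arrays (horizontal axis), inside the stretch (filled) and in the rest of the interval (open), for chromosomes 8 and 9. Carcinoma 15 stands at 1.51 on chromosome 8 and carcinoma 14 at 1.28 on chromosome 9, and the other arrays lie between -0.55 and 0.19.

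Both colours were high inside the stretches. Here each carcinoma with a stretch is set against the mean of the other 15 carcinomas, with no test, since it is 1 array and its Cy3 signal chose the stretch. Over the 25 islands inside the chromosome 8 stretch, carcinoma 15 stood higher by 1.53 in input and by 1.39 in enriched signal. Its log2 ratio, which is centred on the array's median ratio, was -0.098 against the other carcinomas, whose own means differed with an SD of 0.14. That ratio difference was 0.12 with normexp background correction and -0.99 with loess within each array. Over the 64 islands inside the chromosome 9 stretch, carcinoma 14 stood higher by 1.31 in input and by 1.04 in enriched signal. Its ratio difference was -0.16, with an SD of 0.11 between the other carcinomas, and became -0.28 with normexp and -1.13 with loess. The size of the ratio difference, and on chromosome 8 its sign, therefore depended on the scaling. Across islands, the differences in input and enriched signal had a Pearson r of 0.49 on chromosome 8 (25 islands) and 0.41 on chromosome 9 (64 islands); the islands share 1 pair of labellings and are no replicates.

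**Figure D3:**
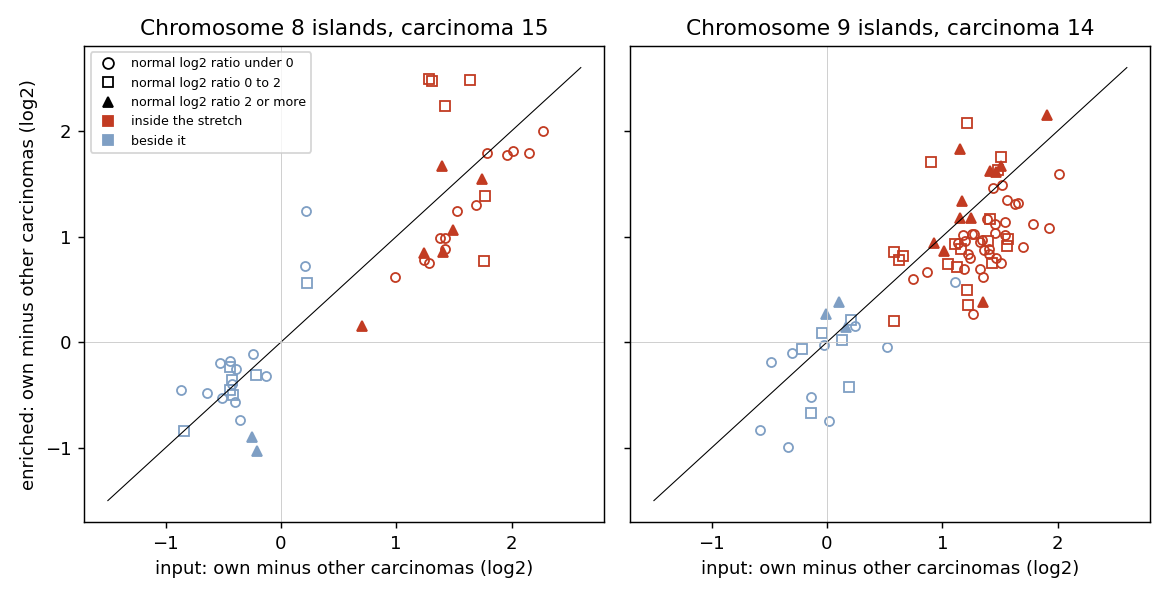
Difference between the carcinoma with the stretch and the mean of the other 15 carcinomas in log2 input (horizontal axis) and log2 enriched signal (vertical axis), 1 point per island inside (red) or beside (blue) the stretch, with the shape giving the mean log2 ratio in normal glands and the line marking equal differences. Islands inside the stretches average 1.53 and 1.31 in input and 1.39 and 1.04 in enriched signal.

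The ratio differences were also set out by the level of the island in normal glands, which was split at log2 ratios of 0 and 2 after the values had been seen. Among the 34 islands of the chromosome 9 stretch with a normal ratio under 0, carcinoma 14 had a mean ratio difference of -0.32 (SD over islands 0.24) and lay below the mean of the other carcinomas at 32. Among the 13 such islands of the chromosome 8 stretch, carcinoma 15 had -0.29 (SD 0.15) and lay below at 12. Outside both intervals, islands of that class averaged -0.026 in carcinoma 14 and 0.082 in carcinoma 15. These values hold the Cy3 signal that chose the stretches, and nothing is read from them.

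At islands of high normal ratio, 2 or more, the 2 carcinomas read differently, and each lay near its own value elsewhere. Carcinoma 14 averaged 0.14 over 11 such islands inside its stretch and 0.16 outside both intervals, and carcinoma 15 averaged -0.26 over 6 inside and -0.40 outside. At islands of middle ratio, carcinoma 15 averaged 0.49 over 6 inside its stretch (SD 0.91) and carcinoma 14 averaged -0.061 over 19 (SD 0.49). Over all classes, carcinoma 15 had the lowest ratio of the 16 carcinomas at 7 of 25 islands in its stretch (28%, against 3.7% of all 13556 islands) and the highest at 2 (8.0% against 5.58%). Carcinoma 14 had the lowest ratio at 16 of 64 (25% against 1.78%) and the highest at 1 (1.56% against 3.16%). These shares rest on the same Cy3 signal.

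The islands at which the ratio in carcinoma 15 lay farthest from the other carcinomas were mostly higher ones. At chr8:13282313-13282765 the ratio was 2.10 in carcinoma 15, against a mean of 0.85 and a range of 0.087 to 2.44 in the other carcinomas. Normal glands read 0.42, 0.51, 0.087 and 0.083 there. At the neighbouring island chr8:13284073-13284784 it was 2.42, against a mean of 1.52 and a range of 0.14 to 3.1, so at both islands at least 1 other carcinoma was higher. At chr8:12504542-12505164 carcinoma 15 had the highest ratio of all carcinomas, 2.01 against 0.16 to 1.54 in the others. At chr8:11648482-11649095 it was also the highest, at 2.27 against 0.77 to 2.26, which is a narrow lead. At these 4 islands the enriched signal in carcinoma 15 exceeded that of the other carcinomas by 2.23 to 2.49, more than the input did. They were picked by their ratio, so an excess of enriched signal over input is largely fixed by the choice. The fifth, chr8:11180622-11180803, ran the other way: carcinoma 15 had the lowest ratio, -0.63, against -0.20 to 0.72 in the other carcinomas and 0.18 to 1.10 in normal glands.

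In carcinoma 14, the farthest islands were of both kinds. At chr9:11003086-11003937 its ratio was the highest, 1.35 against -0.011 to 1.02 in the other carcinomas. Normal glands read 0.60, 1.01, 0.83 and 1.73 there, and the carcinomas as a group were lower by 0.59 (SE 0.21, limma adjusted p = 0.0374), a call that was lost under 10 of the alternatives run. At chr9:9920122-9920747 its ratio was 2.82 and at chr9:10763771-10764266 it was 2.91, and both lay within the range of the other carcinomas, 0.47 to 2.95 and 1.13 to 3.19. At chr9:12472562-12472988 it was the lowest, -0.96 against -0.74 to 0.38, with normal glands from -1.01 to -0.35. The fifth, chr9:8528821-8529154, is described with the group comparison.

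The second question was whether island methylation inside the intervals differed between carcinoma and normal gland. Of the 130 islands, 47 on chromosome 8 and 83 on chromosome 9, limma with Benjamini-Hochberg adjustment over all 13556 islands called 9 higher and 32 lower in carcinoma at an adjusted p under 0.05. These shares, 6.92% and 24.6%, stand beside 11.6% higher and 23.7% lower over the whole array. Without carcinomas 14 and 15 the counts were 9 and 33, beside 10.6% and 23.6%. The lower calls in the intervals were thus at the level of the array. With loess within each array the counts were 3 and 12, beside 9.5% higher and 9.99% lower over the array. Inside the stretches 4 islands were higher and 24 lower of 89, and beside them 5 were higher and 8 lower of 41. Within the second scan day 1 was higher and 18 were lower, beside 609 and 2263 of the array's 13556 islands. Within the third these were 2 and 22, beside 292 and 2393. Without normal gland 1, 3 or 4 the higher calls were 4, 3 and 4, beside 891, 976 and 1143 over the array. With all 20 arrays the array had 1576 higher and 3216 lower calls, so its calls fell in these settings too. The median difference over all 130 islands was -0.096, and over all islands of the array it was 0.023.

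Falls were largest at islands with the most methyl-CpG capture in normal gland, but this depended on the scaling. These islands were picked by the same normal values that enter the difference, which favours falls in advance. The same holds for the islands named below as highest in normal glands. Of the 22 islands with a normal ratio of 2 or more, 17 were lower and 0 higher (77.3%, against 86.4% of 2474 such islands on the array), the median difference was -1.73, and at 13 every carcinoma lay below every normal gland. The share of the array's islands of that class with this separation is not given here. Over islands of any normal ratio, the separation was seen at 16 of 130 in the intervals, beside 15.6% of the array. The opposite one, every carcinoma above every normal gland, was seen at 0 of the 130 islands, beside 1.76% of the array. With loess within each array, 2 of the 22 were lower and 2 higher, and their median difference was 0.13. Loess also took the array's islands of that class to 9.78% lower and 17.4% higher.

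**Figure D4:**
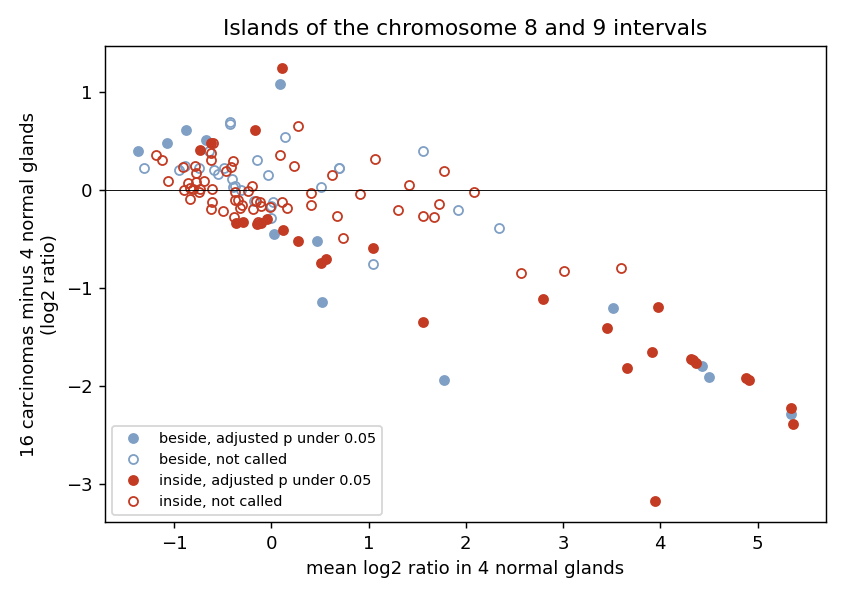
Mean difference in log2 ratio between 16 carcinomas and 4 normal glands (vertical axis) against the mean log2 ratio in normal glands (horizontal axis) for the 130 islands, inside (red) or beside (blue) the stretches, filled where the limma adjusted p was under 0.05. The 22 islands with a normal ratio of 2 or more all lie below 0, with a median of -1.73, before any loess step. The normal values on the horizontal axis also enter the difference.

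The largest fall was at chr9:8528821-8529154 in the chromosome 9 stretch. Its ratio was 4.90, 3.1, 3.45 and 4.34 in the normal glands, and in the carcinomas ran from -0.028 in carcinoma 14 through a median of 0.55 to 2.56 in carcinoma 6. The groups did not overlap, and the difference was -3.17 (SE 0.40, limma adjusted p = 1.13e-05). Without carcinomas 14 and 15 it was -3.1 (adjusted p = 4.12e-05), and with loess -0.41 (adjusted p = 0.391). The enriched signal of carcinoma 14 exceeded that of the other carcinomas by 0.38 here, while its input exceeded theirs by 1.35.

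The islands highest in normal glands within the chromosome 9 stretch were close to one another in level and in fall. At chr9:8573920-8574370 the normal glands read 6.75, 4.46, 5.26 and 4.98, and the carcinomas ran from 2.19 through a median of 3.1 to 4.12. The difference was -2.38 (SE 0.34, limma adjusted p = 1.95e-05), with all 16 carcinomas below all normal glands, and with loess it was -0.48 (limma adjusted p = 0.119). Carcinoma 14 read 3.31, inside the range of the others. At chr9:10022798-10023182 the normal glands read 6.59, 4.49, 5.33 and 4.95, and the carcinomas ran from 2.26 through 3.28 to 4.05. At chr9:8640768-8641069 they read 6.15, 4.12, 4.71 and 4.69, and the carcinomas ran from 2.19 through 3.1 to 3.81. The differences at these 2 islands were -2.22 and -1.93, again with no overlap, and with loess they became 0.16 and 0.29.

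At the islands highest in normal glands within the chromosome 8 stretch, the fall was of the same order. At chr8:11812295-11812756 the normal glands read 5.42, 3.64, 4.34 and 3.97 and the carcinomas 1.73 to 3.36 with a median of 2.67, a difference of -1.73 (SE 0.29, limma adjusted p = 5.33e-05). At chr8:12721124-12721455 the normal glands read 5.42, 3.55, 4.25 and 4.03 and the carcinomas 1.87 to 3.39 with a median of 2.63, and at chr8:11612137-11612533 the normal glands read 4.52, 2.80, 3.42 and 3.08 and the carcinomas 1.49 to 2.69 with a median of 2.01. All 16 carcinomas lay below all normal glands at all 3 islands. With loess the difference was -0.38 at the first (limma adjusted p = 0.218), which ended its call, and turned to 0.37 and 0.34 at the other two. Normal gland 1 was the highest normal gland at each of these 3 islands, and carcinoma 15, at 2.14, 2.23 and 1.73, lay within the range of the other carcinomas.

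Among the islands with the lowest adjusted p, 2 lay beside the chromosome 8 stretch. At chr8:19661134-19661882 the normal glands read 0.93, 0.079, 0.15 and 0.94 and the carcinomas -0.87 to -0.35 with a median of -0.63. The difference of -1.14 (SE 0.14) had the lowest limma adjusted p of both intervals, 9.07e-06. It kept its sign and its call in all 31 alternatives with a value for this island. At chr8:19928677-19929310 the normal glands read 6.66, 4.46, 5.33 and 4.94 and the carcinomas 2.17 to 4.01, a difference of -2.29 that became 0.31 with loess. The last, chr9:11891185-11891655 in the lower distal part of the chromosome 9 stretch, read 4.75, 3.4, 3.83 and 3.67 in normal glands and 1.71 to 2.98 in carcinomas, a difference of -1.66.

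Islands that rose were fewer and lay at lower ratios. The 4 called inside the stretches were picked out after their values were seen. At chr9:6589550-6590158, at the proximal edge of the chromosome 9 stretch, the mean ratio went from 0.11 ± 0.33 (SD, n = 4) to 1.36 ± 0.84 (SD, n = 16), with 14 of 16 carcinomas above all normal glands (limma adjusted p = 0.0198). The other three, at chr9:9867564-9867948, chr9:8295963-8297570 and chr8:11247697-11248529, rose by 0.61, 0.48 and 0.41. The number of rises in both intervals dropped to 3 (2.31%) with loess and to 2 (1.54%) with normexp background correction. Over the array the share of rises also dropped, from 11.6% to 9.5% with loess and 3.47% with normexp.

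Inside minus beside was compared as a single value per array, since it does not depend on the centring of the array. On chromosome 9 the mean island ratio inside the stretch exceeded that beside it by 0.11, 0.0014, 0.058 and 0.17 in the normal glands, and fell short of it in all 15 carcinomas other than carcinoma 14, which ran from -0.70 in carcinoma 8 to -0.028 in carcinoma 10. The difference between the groups was -0.32 (0.086 ± 0.073, SD, n = 4, against -0.24 ± 0.20, SD, n = 15; two-sided, exact permutation over 3876 splits, p = 0.00542, adjusted over 4 tests 0.0217). Carcinoma 14 itself stood at -0.34. The islands inside averaged 0.55 to 0.85 in normal glands and 0.13 to 0.48 in these carcinomas, and those beside averaged 0.46 to 0.74 and 0.16 to 0.97. Within the second and the third scan day the differences were -0.30 and -0.38, with 5 of 5 and 8 of 8 carcinomas below the normal glands of that day. The exact permutation p-values there, 0.0476 and 0.0667, became 0.190 and 0.267 after adjustment over 4 tests. The smallest these arrays allow are 0.0476 and 0.0222, so only the second day reached its floor. With medians over islands in place of means the difference was -0.28 (exact permutation test, adjusted p = 0.270), and 9 of 15 carcinomas lay below all normal glands. Without the filter on dim probes 13 of 15 did. Leaving out normal gland 1, 3 or 4 gave adjusted p = 0.0539, 0.0539 and 0.0686. The call was therefore lost with medians and without each of these normal glands. Loess within each array was not run for the inside minus beside values of either chromosome.

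On chromosome 8 the same comparison showed no such separation. The normal glands read 0.58, 0.49, 0.57 and 0.46 and the 15 carcinomas other than carcinoma 15 ran from 0.26 to 0.73, so that the groups overlapped. The difference was -0.059 (two-sided exact permutation test, adjusted p = 0.460), and it turned to 0.055 with normexp background correction and to 0.090 with medians over islands. Within the second and the third scan day it was -0.042 and -0.078. Carcinoma 15 stood at 0.26, at the low end of the carcinomas.

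**Figure D5:**
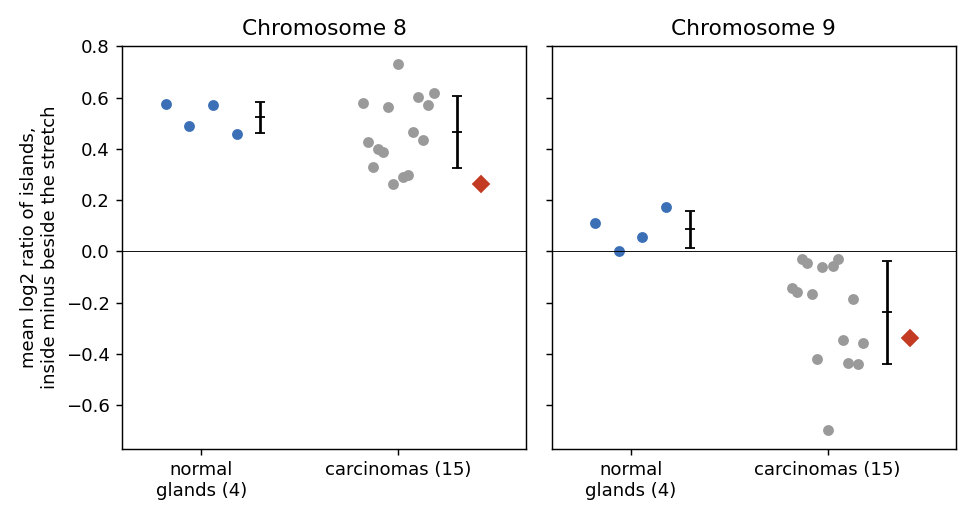
Mean log2 ratio of the islands inside the stretch minus that of the islands beside it (vertical axis), 1 point per array, for 4 normal glands (blue), the 15 carcinomas without the stretch (grey) and the carcinoma with it (red diamond), with bars at the mean and SD. On chromosome 9 the carcinomas lie between -0.70 and -0.028 and the normal glands between 0.0014 and 0.17; on chromosome 8 the groups overlap.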

How the data were processed

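Two-colour Agilent arrays of 4 normal mammary glands and 16 carcinomas were grouped by title. Per the file headers and the submitters' processing notes, the authors read them with Agilent Feature Extraction 10.7.3.1, and the deposited processed signals are background-subtracted, linearly dye-normalized intensities with rn4 probe positions. Per the file headers, the deposited LogRatio is the log10 ratio of red to green. A deposited table by the authors gives log2 ratios for 91897 probes, which match that LogRatio within 7.94e-07. It is not centred, with array medians of -0.48 to -0.083.

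Here 1565 control spots were left out, 187 flagged values were set to missing, and the filter on Cy3 (well above background on 10 or more arrays) left 91599 probes. Log2 ratios were centred on each array's median, without loess. Centring hides any shift common to all islands. Island comparisons used limma 3.58.1 (R 4.3.3), and single values exact permutation (Python 3.11.15, numpy 2.4.6, scipy 1.17.1). On simulated data over 13556 islands the limma comparison recovered 36% of islands changed by 0.5, 74% by 1, 82% by 1.5 and 100% by 2, and called 11 of 13356 unchanged ones. The simulation drew independent Gaussian noise with the same SD in both groups. It leaves out unequal spreads and errors shared between islands, so these rates need not hold for these arrays.

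No label names an animal, and p-values therefore cover only the spread between these samples. None of the 10 slides held both groups. Scan day 1 held 2 carcinomas, day 2 held 2 normal glands and 6 carcinomas, and day 3 held 2 and 8.

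Members, lists and alternatives were chosen with earlier results of these data known. Islands named were, in each stretch, the 5 farthest from the other carcinomas and the 3 highest in normal glands, and in both intervals the 5 with the lowest adjusted p. No gene is named and no sequence printed, since the files pair the probes with neither and an rn4 genome was not used here. Alternatives changed thresholds, windows, background correction, loess, filter, scan day, slide and arrays used.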

Additional observations from a re-analysis of the deposited data

Results flagged for a closer look

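At the island chr8:12504542-12505164 inside the chromosome 8 stretch, normal gland 4 had a log2 ratio of 0.48, far below the other normal glands at 1.02 to 1.11. Its gap to the nearest was 0.85 of the whole range. It was 1 of 23 sets of normal glands searched in this way, and chance marks about 1 in 20.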

How the results depend on the processing

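The chromosome 8 stretch was 3.5 megabases long under most settings, 4.0 with 1-megabase windows and 3.17 as a least-squares segment, and its mean input was 0.96 with normexp in place of 1.51. The chromosome 9 stretch was 7.0 and 4.5 megabases at thresholds of 0.25 and 1, 6.25 and 6.0 with windows of 0.25 and 1 megabase, 6.22 as a segment and 6.0 with normexp. With all 16 carcinomas, the input differences turned to 0.035 and 0.0098, since the carcinoma with the stretch then counts. The inside minus beside ratio turned to 0.055 (normexp) and 0.090 (medians) on chromosome 8. On chromosome 9 it lost its call with medians (-0.28) and without normal gland 1, 3 or 4. Within scan days (-0.30 and -0.38) it did not pass after adjustment, and loess was not run for it. Without any 1 array it ran from -0.35 to -0.29. Against the other carcinomas, the ratio of carcinoma 15 was 0.12 with normexp and -0.99 with loess, and that of carcinoma 14 -0.28 and -1.13. Their enriched signals were higher by 1.06 and 0.70 with normexp. Higher calls were 3 with loess, 2 with normexp, 1 and 2 within scan days 2 and 3, and 3 to 11 without 1 array. Without normal gland 1, 3 or 4 they were 4, 3 and 4. Over the array higher calls also fell, from 1576 to 1288 with loess and 471 with normexp. Within scan days 2 and 3 the array had 609 and 292. Lower calls were 12 with loess, 18 within scan day 2 and 26 to 34 without 1 array. Over the array they fell from 3216 to 1354 with loess and to 2263 within scan day 2. Named islands that reversed with loess were 11612137 (0.34), 12721124 (0.37) and 19928677 (0.31) on chromosome 8, and 8640768 (0.29) and 10022798 (0.16) on chromosome 9. Loess also ended the calls at 11812295 on chromosome 8 and at 8528821, 8573920 and 11003086 on chromosome 9. The causes were not tested. With arrays 1 to 4 of both groups, a replicate block gave 6 higher and 25 lower calls, against 11 and 26 without it. Correlations of same-numbered arrays were 0.34, -0.29, 0.10 and -0.044. These few values show no common pairing by number but cannot exclude one, and the main fit used none. Leaving out each carcinoma and the fit on arrays 1 to 4 without a block were chosen after seeing the data. The number of arrays limits precision, and the spacing of probes limits the edges.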
